A study of Homo sapiens with 6 samples.

Results

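The 9 genes described here encode human receptors for the constant (Fc) part of antibodies, together with their shared signalling chain and the neonatal Fc receptor. They were taken by symbol from a list (*FCGR1A*, *FCGR1B*, *FCGR2A*, *FCGR2B*, *FCGR3A*, *FCER1G*, *FCER2*, *FCAR* and *FCGRT*), and all 9 were among the 30017 genes of the count table. Of these, 6 had enough reads to enter the fit of 14758 genes. *FCGR2B*, *FCGR3A* and *FCAR* fell below the filter on low counts and are given by their counts.

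Fc receptors tie antibodies to cells. The activating receptors FCGR1A (CD64), FCGR3A (CD16) and FCAR (CD89) carry no signalling motif of their own and pair with the gamma chain encoded by *FCER1G*, while FCGR2A (CD32) carries its motif in its own tail. Once the tyrosines of this motif (ITAM) are phosphorylated by SRC-family kinases, the kinase SYK binds and engulfment of the coated particle follows. FCGR2B is the inhibitory receptor of B cells and myeloid cells, whose motif (ITIM) recruits the phosphatase SHIP1. FCER2 (CD23) is the low-affinity receptor for IgE, and FCGRT is the heavy chain of the neonatal receptor FcRn, which pairs with beta-2-microglobulin and returns IgG from endosomes to the cell surface.

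RNA-seq was carried out on BLaER1-CTCF-mAID cells, a subclone of a human leukaemic B cell line. The line carries a CEBPA transgene fused to the oestrogen receptor, so that estradiol with cytokines converts it to induced macrophages (iMacs), and its CTCF protein bears an auxin-inducible degron, which is degraded when auxin (IAA) is added. The groups were untreated cells at 0 h, cells at 96 h of conversion without auxin (control) and cells at 96 h of conversion with auxin added together with the conversion factors (CTCF-depleted), with 2 libraries each. All groups carry the transgene and the degron. They come from 1 subclone. Cells lacking the degron but given auxin were not analysed here, and what auxin does by itself cannot be told apart from the loss of CTCF.

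Total counts ranged from 9273470 to 12718780 per library. Levels are given as CPM, in which counts are divided by the TMM-scaled library size. The degron acts on protein, so the *CTCF* transcript does not check the depletion: it stood at 231 and 214 CPM at 0 h, 181 and 174 CPM in control iMacs and 191 and 189 CPM in CTCF-depleted iMacs. The summed level of 10 macrophage markers went from 81.0 to 90.3 CPM at 0 h to 5436 to 5693 CPM in control and 5193 to 5233 CPM in CTCF-depleted iMacs, and that of 10 B cell markers from 3309 to 3338 CPM to 430 to 439 CPM and 441 to 454 CPM. *LYZ* made up most of the macrophage sum (4527 CPM in control), and single markers differed between the groups at 96 h. In control and then CTCF-depleted iMacs, mean levels were 128 and 285 CPM for *ITGAM*, 35.1 and 14.0 CPM for *MRC1*, 34.8 and 96.6 CPM for *CD22*, and 7.81 and 2.03 CPM for *RAG1*.

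The motifs through which the receptors signal are shown as the coding sequence of each, since at 96 h the 2 genes with an ITAM and the gene with an ITIM were read at very different levels. They were read 5′ to 3′ from the hg38 genome with GENCODE 44 transcripts, with the codons of the motif tyrosines and leucines in capitals. In the ITIM, the codon of the leading hydrophobic residue is in capitals too.
FCER1G ITAM (chr1:161218703-161218934, plus strand, joined from 2 exons): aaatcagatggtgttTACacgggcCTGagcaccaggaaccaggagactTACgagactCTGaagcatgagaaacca
FCGR2A ITAM (chr1:161518041-161518130, plus strand, 1 exon): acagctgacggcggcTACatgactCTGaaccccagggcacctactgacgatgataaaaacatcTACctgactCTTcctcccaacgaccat
FCGR2B ITIM (chr1:161677479-161677520, plus strand, 1 exon): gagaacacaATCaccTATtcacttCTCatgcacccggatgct
Between its leucine and the following tyrosine, the *FCER1G* motif holds 7 codons and the *FCGR2A* motif 12.

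In the conversion from B cell to iMac, transcripts of the signalling chain, of *FCGR1A* and *FCGR1B*, of *FCGR2A*, of *FCER2* and of *FCGRT* were all higher at 96 h than at 0 h. All 6 tested members were called higher in control against 0 h (edgeR quasi-likelihood test, with thresholds of 0.01 on adjusted p and 0.6 on the absolute log2 fold change), where 25.4% of all genes tested were called higher and 22.9% lower. The same 6 were called higher in CTCF-depleted iMacs against 0 h, where the background was 27.2% higher and 25.2% lower, and the 2 comparisons share the 0 h libraries. Of these 6, *FCGR1A*, *FCGR1B*, *FCER1G* and *FCER2* passed the filter only through the 96 h libraries, so that their difference from 0 h follows from the filter and the count of 6 is not read against the background. In RNA from whole cultures, more cells of a type and more RNA per cell cannot be told apart.

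*FCER1G* (chr1:161215234-161220699, plus strand, hg38) had 2 and 0 counts at 0 h, 484 and 434 in control iMacs and 448 and 507 in CTCF-depleted iMacs. Both groups of iMacs lay far above 0 h and overlapped each other. With only 2 counts at 0 h, the ratio of control to 0 h was 478, with a 95% counting interval from 132 to 3950. The interval covers counting error only, since reads without molecular identifiers are not independent molecules.

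*FCGR1A* (chr1:149782671-149791675, plus strand), the high-affinity IgG receptor, had 0 counts in both 0 h libraries, 296 and 295 in control and 346 and 372 in CTCF-depleted iMacs. Against a floor of 3 counts per library, its level in control was at least 86.4-fold higher than at 0 h, and in CTCF-depleted iMacs at least 107-fold higher. *FCGR1B* (chr1:121087395-121096152, plus strand), a near-copy that GENCODE 44 lists as the transcribed pseudogene *FCGR1BP*, had 0 counts at 0 h, 127 and 138 in control and 154 and 139 in CTCF-depleted iMacs. This is at least 38.8-fold higher in control and at least 43.7-fold higher in CTCF-depleted iMacs than at 0 h.

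*FCGR2A* (chr1:161505430-161524013, plus strand) was already detected in the B cells. It stood at 2.58 and 4.20 CPM at 0 h, 74.8 and 77.0 CPM in control and 56.4 and 60.4 CPM in CTCF-depleted iMacs. The 3 groups did not overlap. The level rose 21.6-fold in control against 0 h (log2 fold change 4.43, SE 0.12, adjusted p = 3.35e-38), and 16.6-fold in CTCF-depleted iMacs (log2 fold change 4.05, SE 0.13, adjusted p = 1.62e-35).

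*FCGRT* (chr19:49506816-49526428, plus strand) was likewise detected in the B cells. Its levels were 4.44 and 5.93 CPM at 0 h, 77.0 and 78.9 CPM in control and 109 and 103 CPM in CTCF-depleted iMacs, again without overlap of the 3 groups. It rose 14.7-fold in control (log2 fold change 3.88, SE 0.11, adjusted p = 1.55e-37) and 20.1-fold in CTCF-depleted iMacs (log2 fold change 4.33, SE 0.11, adjusted p = 1.39e-40). *B2M*, which encodes the partner chain of FcRn, rose 2.03-fold in control (log2 fold change 1.02, SE 0.05, adjusted p = 3.67e-28).

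*FCER2* (chr19:7688758-7702146, minus strand), the only C-type lectin among the members, had 0 counts in both 0 h libraries, 33 and 44 in control and 9 and 12 in CTCF-depleted iMacs. CD23 is best known as a marker of mature B cells, and in this line it had reads only in the libraries at 96 h. Its level was at least 11.3-fold higher in control and at least 3.13-fold higher in CTCF-depleted iMacs than at 0 h.

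The members below the filter stayed near the limit of detection. *FCGR2B* (chr1:161663143-161678654, plus strand) had 2 and 7 counts at 0 h, 1 and 1 in control and 1 and 10 in CTCF-depleted iMacs, so that its CTCF-depleted libraries spanned the range of the other groups. *FCGR3A* (chr1:161541759-161550968, minus strand) had 0 and 0 counts at 0 h, 5 and 9 in control and 3 and 4 in CTCF-depleted iMacs. Its control level was at least 2.06-fold higher than at 0 h, and without the filter on low counts it was called higher in that comparison (adjusted p = 0.00248). *FCAR* (chr19:54874235-54891420, plus strand), the IgA receptor, had 1 and 2 counts at 0 h, 0 and 0 in control and 1 and 0 in CTCF-depleted iMacs, and no difference was detectable at this depth.

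**Figure D1:**
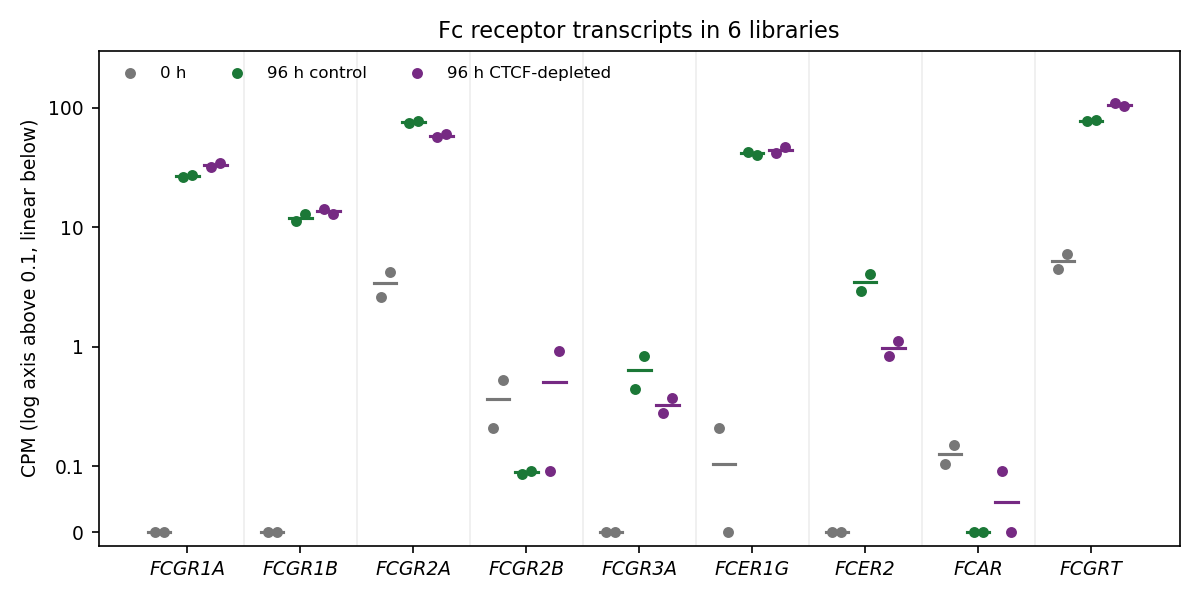
Level of each Fc receptor gene in CPM (y axis, logarithmic above 0.1 and linear below) in the 2 libraries of each group (points) with the group mean (line). *FCGR2A*, *FCER1G*, *FCGR1A* and *FCGRT* lie between 26.1 and 109 CPM in the 4 libraries at 96 h, whereas *FCGR2B*, *FCGR3A* and *FCAR* stay below 1 CPM throughout.

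Divided by the length of one GENCODE 44 transcript per gene, the levels can be ordered between genes. In control iMacs the order was *FCER1G* (70.3 CPM per kb), *FCGRT* (51.6), *FCGR2A* (28.7), *FCGR1A* (20.0), *FCGR1B* (10.6), *FCER2* (2.20), *FCGR3A* (0.304), *FCGR2B* (0.0424) and *FCAR* (0), and no neighbours in this order overlapped between their 2 libraries, although *FCGR2B* rests on 1 count per library and cannot be told from 0. The chain that carries the ITAM had a higher level per kb than *FCGR1A*, *FCGR3A* or *FCAR*, which use it. In CTCF-depleted iMacs *FCER1G* (70.3 to 79.2 CPM per kb) and *FCGRT* (68.5 to 72.2) overlapped, and *FCGR1A* (24.0 to 25.7) stood above *FCGR2A* (21.3 to 22.8), the opposite of their order in control. The level of *FCGR1A*, and so its place in both orders, depends on how reads shared with its copies were counted, which is not known here. At 0 h only *FCGRT* (3.43 CPM per kb) and *FCGR2A* (1.28) were above 0.175 CPM per kb on average.

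CTCF depletion left most members close to their control level. Of the 6 tested members, 0 were called higher and 1, *FCER2*, was called lower in CTCF-depleted against control iMacs, beside 5.41% of all genes tested called higher and 7.03% lower. DESeq2 called 0 in either direction. At an unadjusted p below 0.05, 2 were higher and 2 lower. The shares above do not apply to that looser threshold, and its share over all genes tested was not counted. No result about the members is therefore read from these 4. The libraries of the 2 groups did not overlap for *FCGR1A*, *FCGR1B*, *FCGR2A*, *FCER2* and *FCGRT*, and overlapped for *FCER1G*. With 2 libraries per group this is a weak criterion, met by *FCGR1B* at an edgeR adjusted p of 0.408. The share of all genes tested that met it was not counted, so no result about the members is read from it.

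*FCER2* fell from 2.91 and 4.07 CPM in control to 0.833 and 1.11 CPM in CTCF-depleted iMacs. This is 3.56-fold lower (log2 fold change -1.83, SE 0.39, 95% interval -2.61 to -1.06, adjusted p = 1.34e-04). The call rests on few reads: it was lost with DESeq2 (adjusted p = 0.0282), without the second control library (log2 fold change -1.55, adjusted p = 0.0252) and without the first CTCF-depleted library (log2 fold change -1.61, adjusted p = 0.0108), with the same direction each time. *FCER2* met the minimum of the filter in the control group alone, where it is high, and without the filter the log2 fold change was -1.80 (adjusted p = 3.21e-05).

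*FCGRT* and *FCGR2A* differed from control at small adjusted p but by less than the fold threshold, and in opposite directions. For *FCGRT* the log2 fold change was 0.45 (SE 0.07, 95% interval 0.31 to 0.59, adjusted p = 7.40e-07), a level 1.36-fold that of control. For *FCGR2A* it was -0.38 (SE 0.08, 95% interval -0.53 to -0.23, adjusted p = 6.26e-05). *FCGR1A* had a log2 fold change of 0.31 (SE 0.11, 95% interval 0.11 to 0.52, adjusted p = 0.0148), past neither threshold.

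*FCGR1B* and *FCER1G* were not distinguishable from control. The log2 fold change of *FCGR1B* was 0.18 (SE 0.16, 95% interval -0.13 to 0.48, adjusted p = 0.408) and that of *FCER1G* 0.09 (SE 0.09, 95% interval -0.09 to 0.26, adjusted p = 0.471). Both intervals lie within the fold threshold on either side. For the sparse members only counting intervals can be given: the ratio of CTCF-depleted to control was 5.62 for *FCGR2B* (1.23 to 52.2) and 0.511 for *FCGR3A* (0.175 to 1.35). The *FCGR2B* ratio comes from 10 counts in 1 library.

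**Figure D2:**
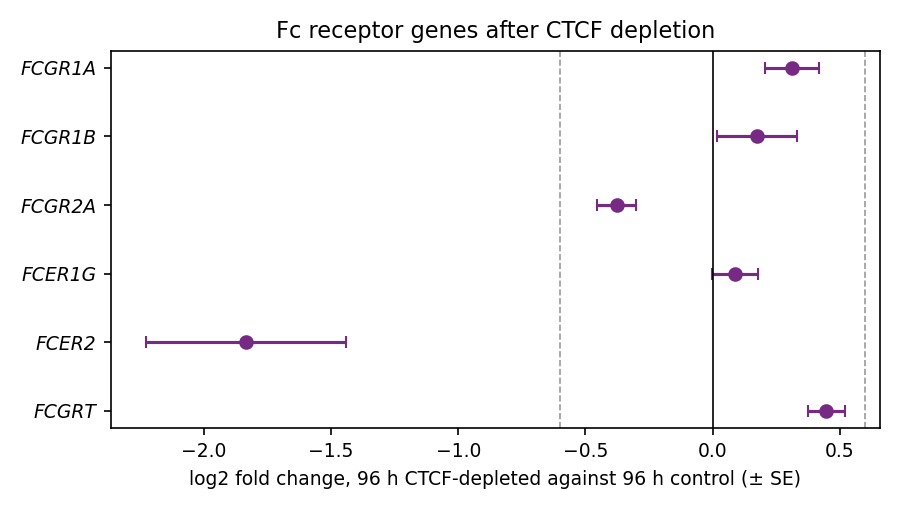
Log2 fold change of CTCF-depleted against control iMacs (x axis) for the 6 members tested, with SE as bars and the fold threshold of 0.6 as dashed lines. *FCER2* at -1.83 lies beyond the threshold, and the other 5 lie between -0.38 and 0.45.

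Several of these genes have near-identical copies, and reads from a stretch shared by copies cannot be assigned to one of them. Over their transcripts, *FCGR1A* and *FCGR1B* differed at 9 of 1125 aligned bases (99.2% identical), and *FCGR1A* and a further copy, *FCGR1C*, were equally close. Windows of 100 bases that also occur in another gene made up 48.4% of the *FCGR1A* transcript, 50.9% of *FCGR1B*, 55.5% of *FCGR1C*, 29.8% of *FCGR2B*, 67.3% of *FCGR2C*, 11.8% of *FCGR3A* and 5.26% of *FCGR2A*. *FCER1G*, *FCER2*, *FCAR* and *FCGRT* had none. How reads that fit several places were counted is not given in the sources used here. The split within the *FCGR1* copies, and that between *FCGR2B* and *FCGR2C*, is therefore uncertain.

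*FCGR1C* had 0 and 0 counts at 0 h, 38 and 48 in control and 38 and 29 in CTCF-depleted iMacs. *FCGR1A* made up 70.0% and 68.1% of the *FCGR1A* and *FCGR1B* counts in control (Wilson 95% intervals 65.4 to 74.1% and 63.6 to 72.3%) and 69.2% and 72.8% in CTCF-depleted iMacs (65.0 to 73.1% and 68.8 to 76.5%), with overlapping intervals. Of the 3 copies summed, *FCGR1C* made up 8.24% and 9.98% in control and 7.06% and 5.37% in CTCF-depleted iMacs, without overlap, on 29 to 48 counts per library. With the 3 copies summed, the log2 fold change of CTCF-depleted against control was 0.22 (adjusted p = 0.0266), again past neither threshold.

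Of the counts of the activating *FCGR2A* and the inhibitory *FCGR2B*, nearly all fell on *FCGR2A* at 96 h. More of the *FCGR2B* transcript is shared with other genes (29.8% of windows, 5.26% for *FCGR2A*). The share of *FCGR2A* thus depends on how shared reads were counted, which is not known here. *FCGR2A* made up 92.6% and 88.9% of the *FCGR2A* and *FCGR2B* counts at 0 h (Wilson 95% intervals 76.6 to 97.9% and 78.8 to 94.5%), 99.9% in both control libraries and 99.8% and 98.5% in CTCF-depleted iMacs. The 0 h libraries lay below all libraries at 96 h. *FCGR2C*, whose transcript joins a stretch like *FCGR2B* to a tail like *FCGR2A*, had 2 and 1 counts at 0 h, 4 and 9 in control and 6 and 6 in CTCF-depleted iMacs. *FCGR3B*, the neutrophil copy of *FCGR3A*, had 0 counts in every library.

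**Figure D3:**
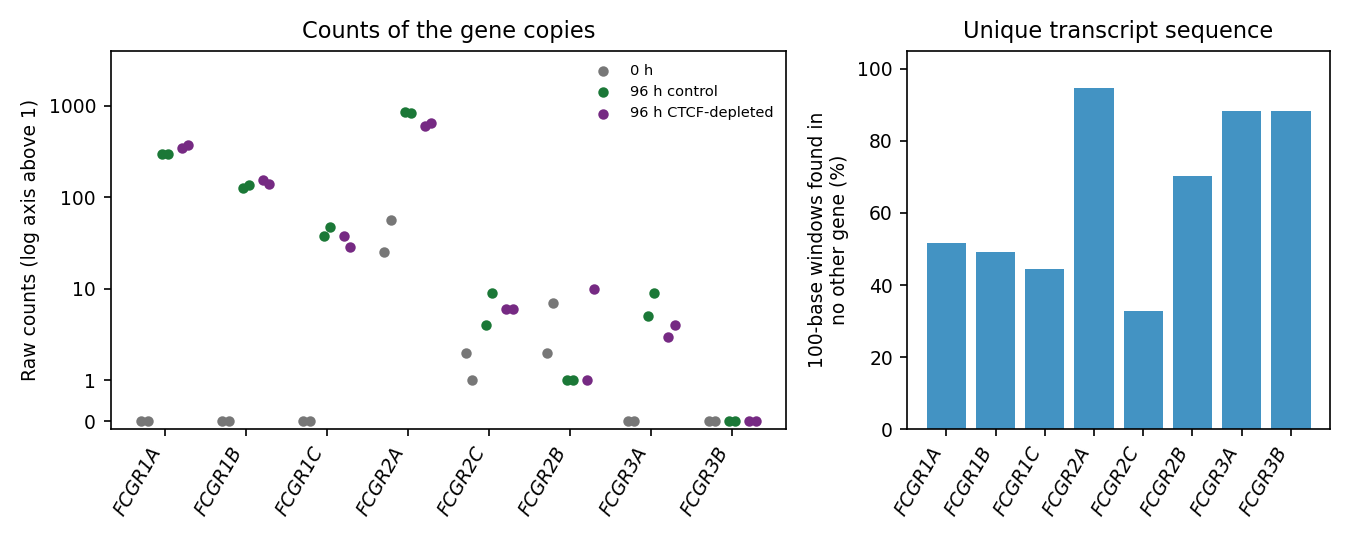
Left, raw counts of each *FCGR1*, *FCGR2* and *FCGR3* copy (y axis, logarithmic above 1) in the 2 libraries of each group. Right, the percentage of 100-base windows of each transcript found in no other gene, from 32.8% for *FCGR2C* to 94.7% for *FCGR2A*.

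*FCER1G* and the *FCGR2* and *FCGR3* genes lie in a stretch of 513 kb on the long arm of chromosome 1 that ends at *FCRLB*. *FCER1G* and *FCGR2A* were called higher in control against 0 h, as given above. *FCRLA* and *FCRLB*, Fc receptor-like genes of B cells, were called lower, and *TOMM40L* and *SDHC* were not called (log2 fold changes 0.13 and 0.01). *FCRLA* went from 12.6 and 11.9 CPM at 0 h to 0.353 and 0 CPM in control, a count ratio of 0.0148 (95% counting interval 0.00401 to 0.0384). *FCRLB* fell by 2.70 on the log2 scale (SE 0.55, adjusted p = 1.57e-05). Both met the minimum of the filter at 0 h alone, where they are high. Both were also called lower without the filter (adjusted p = 2.19e-60 for *FCRLA* and 3.43e-06 for *FCRLB*). Of these genes, 0 were called between CTCF-depleted and control iMacs with edgeR or DESeq2. Only *FCGR2A* had an unadjusted p below 0.05, and the share of all genes at that p was not counted.

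**Figure D4:**
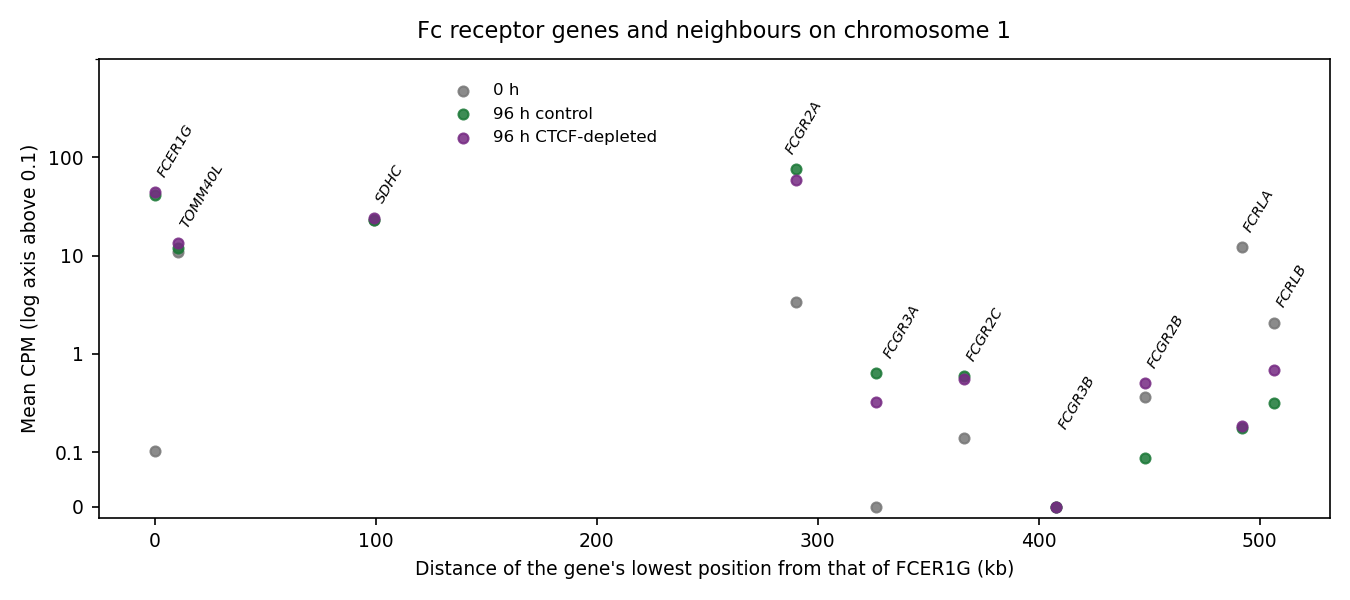
Mean CPM in the 3 groups (y axis, logarithmic above 0.1) against the distance of each gene's lowest chromosome position from that of *FCER1G* (x axis, kb), for the genes labelled. *FCER1G* and *FCGR2A* are higher at 96 h than at 0 h, while *FCRLA* at 492 kb is at 12.3 CPM at 0 h and below 0.2 CPM at 96 h.

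*FCGR1A* and *FCGR2A* are on the same chromosome arm but far apart, and both rose. The 250 bases before their RefSeq starts (GRCh38.p14, plus strand) are shown because they share a run of 20 bases, atttccTTCCTCttttctaa, which lies 52 to 33 bases before the start of *FCGR1A* and 51 to 32 bases before that of *FCGR2A*. Capitals mark matches to the core of the PU.1 motif (GAGGAA, here on the opposite strand as TTCCTC), to the C/EBP motif (TTNNGNAA) and to the interferon gamma activated site (TTCNNNGAA), each searched on both strands.
FCGR1A (chr1:149782444-149782693): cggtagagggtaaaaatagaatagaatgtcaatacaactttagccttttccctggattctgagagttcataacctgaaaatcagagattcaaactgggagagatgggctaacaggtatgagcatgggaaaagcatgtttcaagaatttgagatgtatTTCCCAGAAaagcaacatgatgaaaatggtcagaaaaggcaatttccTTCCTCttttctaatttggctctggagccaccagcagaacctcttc
FCGR2A (chr1:161505207-161505456): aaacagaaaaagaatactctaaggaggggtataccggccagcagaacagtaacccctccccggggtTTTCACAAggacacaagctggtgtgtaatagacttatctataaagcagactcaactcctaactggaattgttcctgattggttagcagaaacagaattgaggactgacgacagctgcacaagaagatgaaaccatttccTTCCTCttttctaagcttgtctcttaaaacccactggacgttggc
The PU.1 core is held by 23.6% of 35116 promoters of this length, the C/EBP motif by 33.2% and the interferon gamma activated site by 6.57%. Matches to the PU.1 core and the C/EBP motif are therefore common. *FCGR1A* holds the interferon gamma activated site 93 to 85 bases before its start. *FCER1G* held none of these 3 motifs in this window, and *FCGRT* held the C/EBP motif 98 to 91 bases before its start. Members below the filter held these motifs too. *FCGR2B*, with 1 count in each control library, held all 3 before 1 of its starts. There, the PU.1 core and the interferon gamma activated site were at more than 1 position. *FCGR3A*, also below the filter, held the C/EBP motif before 1 of its starts. *FCER2* held the interferon gamma activated site before 1 of its starts. Whether the motifs bear on the levels of the members was not tested. The core motif of CTCF, which 0.427% of all promoters hold, was found in none of the members' promoters in the table.

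Around the receptors, 8 lists of 122 genes were followed, of which 99 genes were tested. In control against 0 h, 54 were called higher, 13 lower and 32 neither, beside 25.4% higher and 22.9% lower over all genes tested. In CTCF-depleted against 0 h 53 were called higher and 11 lower, beside 27.2% and 25.2%. Of the 99, 14 did not meet the minimum of the filter at 0 h and entered through libraries at 96 h. Between CTCF-depleted and control iMacs 8 were called higher and 5 lower, beside 5.41% and 7.03% over all genes, so that the share of listed genes called was near the background of 12.4%.

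Of the other receptors that use the *FCER1G* chain, 8 of 8 tested were called higher in control against 0 h, among them genes of C-type lectins that sense microbial glycolipids and of activating LILR receptors. Most passed the filter only through the libraries at 96 h, so the count is a description. *CLEC4D* had 0 counts at 0 h and 78.7 and 79.6 CPM in control, and *CLEC4E* had 0 counts at 0 h and 47.0 and 47.3 CPM in control. After CTCF depletion *OSCAR*, a receptor for collagen, rose 2.18-fold (log2 fold change 1.12, SE 0.08, adjusted p = 4.00e-17) and *LILRA5* 1.91-fold (log2 fold change 0.93, SE 0.10, adjusted p = 4.30e-12), while *CLEC6A* fell by 1.04 on the log2 scale (SE 0.27, adjusted p = 0.00154). The median of this list was 0.43, beside -0.03 for all genes tested.

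Of 30 tested adaptors and kinases that act next to activating receptors, 10 were called higher and 6 lower in control against 0 h (25.4% and 22.9% over all genes), shares near the background, with a median log2 fold change of 0.43 beside 0.02 for all genes. The SRC-family kinases split: *FGR* went from 0.413 and 0.300 CPM to 152 and 154 CPM, and *LYN* rose 6.81-fold, whereas *LCK* and *FYN*, best known from T cells, were called lower. *TYROBP*, the gene of a second ITAM adaptor, had 1 and 0 counts at 0 h and 609 and 549 counts in control. *SYK*, used by B cell and Fc receptors alike, had a log2 fold change of 0.48 (SE 0.05, adjusted p = 1.66e-12), below the fold threshold. *BLNK*, the adaptor of the B cell receptor, fell by 5.54 on the log2 scale (SE 0.13, adjusted p = 5.27e-42).

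In this list, CTCF depletion was accompanied by 1 higher call and 2 lower calls, with a median of -0.02. *GAB2*, a scaffold that recruits PI3 kinase to Fc receptors, fell from 318 and 335 CPM in control to 166 and 167 CPM (log2 fold change -0.97, SE 0.05, adjusted p = 4.69e-24). *PIK3CB*, a PI3 kinase catalytic subunit, fell by 0.61 on the log2 scale (SE 0.08, adjusted p = 1.22e-08), close to the fold threshold. *PLCG1* rose 1.65-fold (log2 fold change 0.72, SE 0.07, adjusted p = 1.08e-12).

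Among 12 phosphatases and other inhibitors of Fc receptor signals, 4 were called higher and 2 lower in control against 0 h, near the 25.4% and 22.9% over all genes. *INPP5D*, which encodes the phosphatase SHIP1 that binds the ITIM of FCGR2B, rose 3.11-fold (log2 fold change 1.64, SE 0.05, adjusted p = 2.32e-35), although *FCGR2B* itself was at 1 count in each control library. *PTPN6*, the gene of the phosphatase SHP-1, fell by 1.08 on the log2 scale (SE 0.06, adjusted p = 2.08e-24). After CTCF depletion 1 of the 12, the ubiquitin ligase gene *CBLB*, was called lower (log2 fold change -0.74, SE 0.07, adjusted p = 1.19e-13), and the list median was 0.06.

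The engulfment machinery downstream of the receptors had 14 genes called higher and 2 lower of 25 tested in control against 0 h, beside 25.4% higher and 22.9% lower over all genes. The kinase gene *PRKCD* rose 5.75-fold, *RHOG* 4.35-fold and the actin-nucleating subunit gene *ARPC1B* 3.10-fold, while *MARCKS* fell by 2.16 on the log2 scale. In CTCF-depleted against control iMacs, *PLD2* rose 1.80-fold (log2 fold change 0.85, SE 0.11, adjusted p = 1.70e-09) and the sparse *PLA2G4A* went from 6 and 1 counts to 16 and 12 (adjusted p = 0.00956). *PLA2G4A* met the minimum of the filter in the CTCF-depleted group alone, and without the filter it was not called (adjusted p = 0.0189). The other 23 genes were not called.

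Partners of FcRn and CD23 include *B2M*, the sheddase gene *ADAM10*, whose product cleaves CD23 from the membrane, and the integrins that bind CD23. Of 7 tested, 5 were called higher and 1, *ITGB3*, lower in control against 0 h, beside 25.4% higher and 22.9% lower over all genes. *ITGB3* met the minimum of the filter at 0 h alone, where it is high. It was also called lower without the filter (adjusted p = 1.03e-06). *ADAM10* rose 2.12-fold (log2 fold change 1.08, SE 0.05, adjusted p = 2.49e-29). Between CTCF-depleted and control iMacs *ITGAM*, which encodes the alpha chain of the complement receptor CR3, rose 2.22-fold (log2 fold change 1.15, SE 0.06, adjusted p = 1.43e-24), and *ITGB3* had 0 and 1 counts in control and 6 and 9 in CTCF-depleted iMacs (adjusted p = 0.00479). *ADAM10* had a log2 fold change of -0.32 (SE 0.04, adjusted p = 1.63e-08), below the fold threshold.

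Interferon gamma is a classic inducer of *FCGR1A*. Of 6 genes of its pathway, 5 were called higher in control against 0 h, beside 25.4% higher and 22.9% lower over all genes. *JAK2* was 12.7-fold, *IFNGR2* 7.52-fold and *IFNGR1* 6.13-fold higher. After CTCF depletion *JAK2* rose a further 1.73-fold (log2 fold change 0.79, SE 0.05, adjusted p = 4.92e-21), and *IRF1* fell from 75.0 and 74.5 CPM to 45.4 and 44.8 CPM (log2 fold change -0.73, SE 0.08, adjusted p = 1.50e-11).

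IL-4 and Notch signals are known to induce *FCER2* in B cells. All 6 genes of that list were called higher in control against 0 h, beside 25.4% higher and 22.9% lower over all genes. *IL4R* was 6.82-fold and *NOTCH2* 4.17-fold higher. In CTCF-depleted against control iMacs edgeR and DESeq2 called 0 of 6, with a median of -0.26 beside -0.03 for all genes. At an unadjusted p below 0.05, 4 were lower. The share of all genes at that p was not counted, so no result about the list is read from it. *RBPJ*, the DNA-binding partner of Notch, had a log2 fold change of -0.57 (SE 0.05, adjusted p = 3.11e-15), just inside the fold threshold, and *IL4R* one of -0.32 (SE 0.09, adjusted p = 0.00224). Whether these bear on *FCER2* was not tested.

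**Figure D5:**
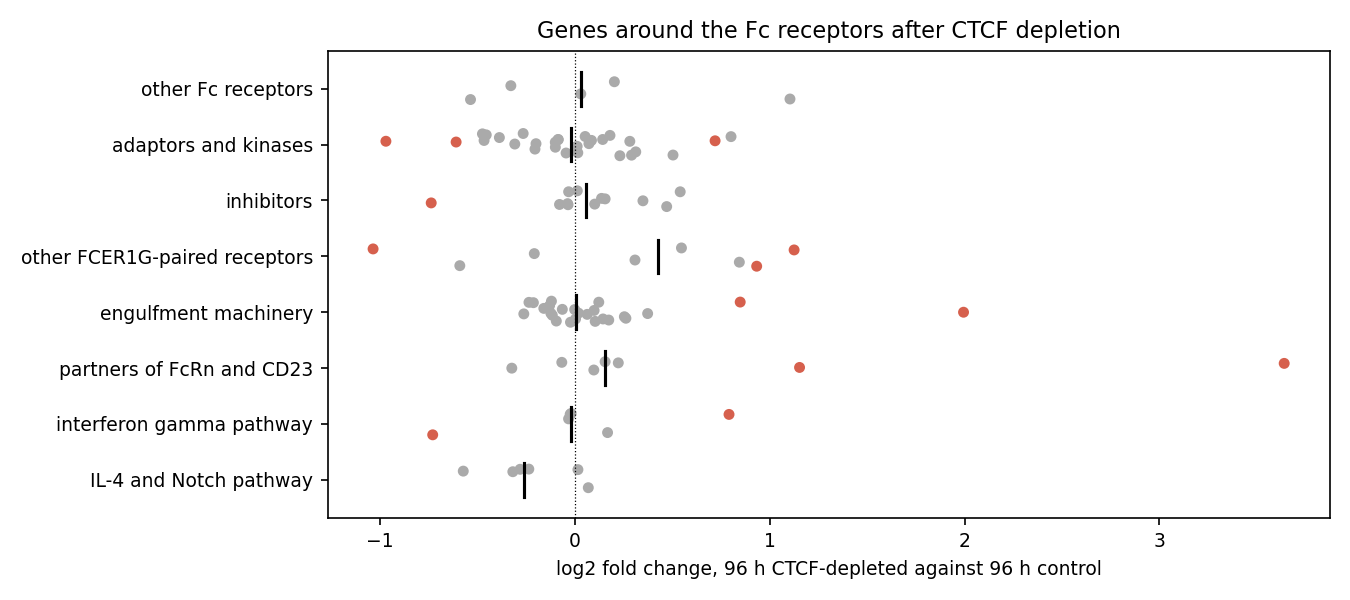
Log2 fold change of CTCF-depleted against control iMacs (x axis) for the 99 tested genes of the 8 lists (points, coloured where called) with list medians (black lines). Medians lie between -0.26 and 0.43, and called genes extend from -1.04 for *CLEC6A* to 3.64 for *ITGB3*.

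Among the remaining Fc receptors and Fc receptor-like genes, 5 of 19 listed symbols were tested. *FAIM3*, now named *FCMR*, the IgM receptor gene, rose 2.64-fold in control against 0 h (log2 fold change 1.40, SE 0.11, adjusted p = 5.58e-17) and had a log2 fold change of -0.54 in CTCF-depleted against control iMacs (SE 0.10, adjusted p = 1.99e-05), below the fold threshold. Of the chains that complete the high-affinity IgE receptor around FCER1G, *FCER1A* had 0 and 0 counts at 0 h, 9 and 21 in control and 5 and 4 in CTCF-depleted iMacs, and *MS4A2* had 0 counts in every library. The ratio of CTCF-depleted to control was 0.307 for *FCER1A* (95% counting interval 0.128 to 0.662), and without the filter on low counts it was not called (adjusted p = 0.0474).

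Markers of other cells that bear Fc receptors were followed beside these values. Of 8 mast cell and basophil markers the sum was 2.27 to 3.83 CPM at 0 h, mostly *KIT* (mean 2.91 CPM). It was 2.74 to 3.80 CPM in control, where *KIT* stood at 0.0904 CPM, and 1.39 to 1.84 CPM in CTCF-depleted iMacs. The difference between the groups at 96 h was in the same direction as *FCER1A*, which is 1 of the 8. Of 9 T and NK cell markers the sum rose from 3.51 to 4.35 CPM at 0 h to 36.3 to 36.9 CPM in control, nearly all of it *NKG7* (34.7 CPM), with *CD3D* and *CD3G* at 0 in all libraries. Of 7 neutrophil markers the sum was 0.722 to 0.825 CPM at 0 h, 101 to 106 CPM in control and 82.5 to 91.2 CPM in CTCF-depleted iMacs, mostly *CSF3R* (71.8 CPM in control) and *CAMP* (19.8 CPM), with *FCGR3B* at 0. Of 5 dendritic cell markers the sum was 12.4 to 14.2 CPM in control and 7.78 to 9.03 CPM in CTCF-depleted iMacs. The part of these markers in the results was not tested.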

How the data were processed

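The 6 RNA-seq libraries (2 per group of BLaER1-CTCF-mAID cells) were made from total RNA with ribosomal depletion and a stranded kit. The raw counts per gene were made by the authors and used as deposited. Per the submitters' processing notes, STAR 2.6.1d, featureCounts 2.0.6 and the build hg38 were used. The strand setting, the annotation release and the treatment of reads that fit several places are not given in the sources used here. The methods of the study call the replicates biological.

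Counts were fitted in R 4.3.3 with edgeR 4.0.16 (filterByExpr with a minimum count of 10, TMM, quasi-likelihood, group as the only term, all 6 libraries), and p-values were adjusted over 14758 genes by the Benjamini-Hochberg method. A gene was called where its adjusted p was under 0.01 and its log2 fold change exceeded 0.6 in size. A 95% interval is the log2 fold change with a normal margin. The fit was tested on simulated data for CTCF-depleted against control: 200 of 200 genes changed 4-fold were recovered with 0 false calls among 14109 genes. Only genes above the average level of *FCER2* were changed, and all counts were drawn at the common spread. The simulation therefore does not cover sparse genes such as *FCER2*, or smaller changes. Fold bounds used a floor of 3 counts per library. Symbols were matched to GENCODE 44 (23707 of 30017) by name or by earlier name, and shared sequence was counted in exact windows of 100 bases. Genes overlap others at *FCGR1A*, *FCGR1B*, *FCGR2A*, *FCGR2B*, *FCGR3A* and *FCAR*, whose reads cannot be told apart there if strand was not used. Summaries used Python 3.11.15, pandas 2.3.3, numpy 2.4.6, scipy 1.17.1 and matplotlib 3.10.9.

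The members and lists were chosen with earlier results of these data known. Named were all members and their copies, up to 5 called genes per list and comparison by smallest adjusted p, *FCER1A*, *MS4A2*, *TYROBP*, *SYK*, *B2M*, *ADAM10*, *INPP5D*, the cell type markers, and the 5 genes nearest in profile to each of the 3 most abundant members. *CTCF*, *TOMM40L*, *SDHC*, *FYN* and *LCK* were named in addition, after their values were seen. Some genes of the lists and of the chromosome 1 stretch are not reported here. Replicate numbers were not treated as pairs, since deviations of same-numbered libraries correlated at -0.0194, 0.0109 and -0.0294. Alternatives were DESeq2 1.42.0, RLE scaling, no filter on low counts, a block for the replicate number, a fit of only the 4 libraries compared, another threshold, leaving out each library in turn, and summing the counts of gene copies.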

Additional observations from a re-analysis of the deposited data

How the results depend on the processing

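The members called against 0 h kept their direction and their side of the threshold in every alternative run, with 1 exception that could not be fitted: *FCER2* in CTCF-depleted against 0 h has no value with only the 4 libraries compared. In CTCF-depleted against control iMacs, the call of *FCER2* as the 1 lower member was lost with DESeq2 (0 called), and leaving out single libraries gave 0 to 1. The log2 fold change of *FCER2* ranged from -2.03 to -1.55 and its adjusted p from 3.18e-05 to 0.0282 over 13 alternatives, 10 of which kept the call. At an adjusted p below 0.05 with no fold threshold, 2 members were called higher (*FCGR1A*, *FCGRT*) and 2 lower (*FCER2*, *FCGR2A*). The replicate numbers mark no pairing, and with the replicate number as a block 1 member was called lower and 0 higher, and *FCER2* had a log2 fold change of -1.84 (adjusted p = 1.78e-04). The block changed no other call of a member.

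Of the 99 listed genes, 26 were called higher and 26 lower in CTCF-depleted against control iMacs at an adjusted p below 0.05 with no fold threshold, against 8 and 5. In CTCF-depleted against 0 h 21 were called lower, against 11. With DESeq2, 3 were lower after depletion, and leaving out single libraries gave 3 to 7. Over all genes, the same threshold gave 5500 lower calls in control against 0 h (3376 otherwise), 5658 lower in CTCF-depleted against 0 h (3726), and 2375 higher and 3330 lower in CTCF-depleted against control (798 and 1038).

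With the third copy counted, the share of *FCGR1A* was 66.6% in CTCF-depleted and 62.8% in control iMacs, against 71.0% and 69.1%, and per kilobase it was 67.5% and 65.4%. The share of *FCGR2A* was 86.9% at 0 h and 99.1% in control with *FCGR2C* counted, against 90.7% and 99.88%, and 99.85% in control per kilobase. With 2 libraries per group, the depth limits what can be said of genes with few reads: without the filter on low counts, *FCGR3A* was called higher in control against 0 h (adjusted p = 0.00248), which made 7 members, while *FCGR2B* and *FCAR* were called in no comparison.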

Other observations

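The genes whose profile over the 6 libraries was nearest to that of a member (Euclidean distance of mean-centred log2 CPM, with a prior count of 2) are given for the 3 most abundant members that passed the filter. The prior count shrinks the differences of sparse genes, so a short distance need not mean an equal fold change. For *FCGRT* they were *ADORA2B* (distance 0.285), *TBXAS1* (0.295), *ELANE* (0.309), *DOCK8* (0.319) and *RAB31* (0.379). The sparse *ELANE*, at 2.58 CPM in control, rose by 7.85 on the log2 scale in control against 0 h, against 3.88 for *FCGRT*. For *FCGR2A* they were *TMEM37* (0.222), *MXD1* (0.269), *COL22A1* (0.296), *HGF* (0.304) and *SEMA4A* (0.344). Each had a negative log2 fold change in CTCF-depleted against control iMacs, from -0.55 for *MXD1* to -0.21 for *HGF*. The libraries of this comparison entered the distance, so the shared sign follows in part from how the genes were picked. Against 0 h, the sparse *TMEM37* and *COL22A1* rose by 6.48 and 6.17 on the log2 scale in control, against 4.43 for *FCGR2A*. *FCER1G* had no neighbour as close: *RFX8* (0.651), *ANPEP* (0.669), *ALOX5AP* (0.699), *GLIPR1* (0.706) and *C3AR1* (0.726) followed it. With Pearson's correlation as the measure, 0 of these 5 were shared for *FCGRT*, 1 for *FCGR2A* and 0 for *FCER1G*, so the names depend on the measure.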
